A study of Mus musculus with 10 samples.

Results

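The d2 cells are single mouse cells taken on day 2 of a chemical course that turns fibroblasts into cells like those of the extraembryonic endoderm (XEN). They were chosen by name, as the columns of the deposited count table whose name starts with d2, and kept where at least 4000 genes were detected, with ERCC spike-in RNAs left out. Of 88 deposited d2 cells, 83 were kept, and 670 of 808 cells were kept in the whole table. Each cell carries a running number, and the d2 numbers run from 1 to 88. The cells numbered 1 to 48 (45 kept) and those numbered 49 to 88 (38 kept) were also described apart for the main results, because the labels do not say what a number range is.

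Mouse embryonic fibroblasts (MEFs) are a mixed culture of connective tissue cells that make collagen, other matrix proteins and actin-based contractile fibres. The cocktail acts on several pathways together: it stabilises β-catenin and so turns on Wnt target genes, blocks a receptor of TGF-β, raises cyclic AMP, activates a retinoic acid receptor and inhibits a histone methyltransferase. Genes that answer each of these pathways are well known, and cells of a culture also differ in the phase of the cell cycle, which sets the level of a large group of genes.

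The study followed MEFs from ICR mouse embryos under this cocktail for 20 days by RNA sequencing of single cells picked by hand. The C6FAE cocktail held CHIR99021 (C, an inhibitor of GSK3) at 20 μM, RepSox (6, an inhibitor of the TGF-β receptor ALK5) at 10 μM, Forskolin (F, which activates adenylyl cyclase) at 50 μM, AM580 (A, an agonist of retinoic acid receptor α) at 0.05 μM and EPZ004777 (E, an inhibitor of Dot1l) at 5 μM. It was given in KnockOut DMEM with 10% KnockOut Serum Replacement, 10% fetal bovine serum and basic fibroblast growth factor at 50 ng/ml. The methods of the study also list valproic acid at 0.5 mM in this medium, which the name C6FAE does not include. Here d1 and d3 stand for cells of the same course taken a day earlier and a day later, d0 for MEFs before the cocktail, and d4, d5, d6p, d8, d12 and d20 for later days. Cells of the groups d8c and d12c came from colonies picked on days 8 and 12. MEFs are a primary culture and no line, and the embryos had lost head, limbs and viscera before the cells were set free. Although 10 batches of cells were deposited, the name of a cell does not tell its batch. All cells were therefore treated as 1 sample without replicates, cells were not taken as replicates, and no test was made. Intervals below cover counting error only.

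Depth was the first question, since the number of detected genes follows it. The values are counts of UMIs, short random tags by which copies of the same RNA molecule are counted once. The 83 kept d2 cells had between 38116 and 4871768 UMIs, with a median of 1055206, and between 4462 and 11280 detected genes, with a median of 8643. The 5 cells left out had at most 32274 UMIs and 2552 genes. The kept cell with the fewest genes was cell 77, which also had the fewest UMIs. Kept cells numbered 1 to 48 had a median of 721613 UMIs and 8121 genes, and those numbered 49 to 88 a median of 1254580 UMIs and 9145.5 genes. Later numbers were thus deeper in the median, while the ranges overlapped. The share of spike-in RNAs had a median of 2.99% in the first range and 4.79% in the second. The median of UMIs per spike-in count was 32.4 in the first range and 19.9 in the second, so that the deeper range held fewer cell UMIs per spike-in count. Within d2 the Spearman coefficient of UMIs with detected genes was 0.884 over 83 cells, which both come from the same libraries. At d1, 40 of 40 cells were kept with a median of 749158 UMIs, and at d3, 38 of 40 cells with a median of 763742 UMIs. No cell name occurred more than once in the table, and all d1 and d3 cells carry numbers up to 40.

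**Figure D1:**
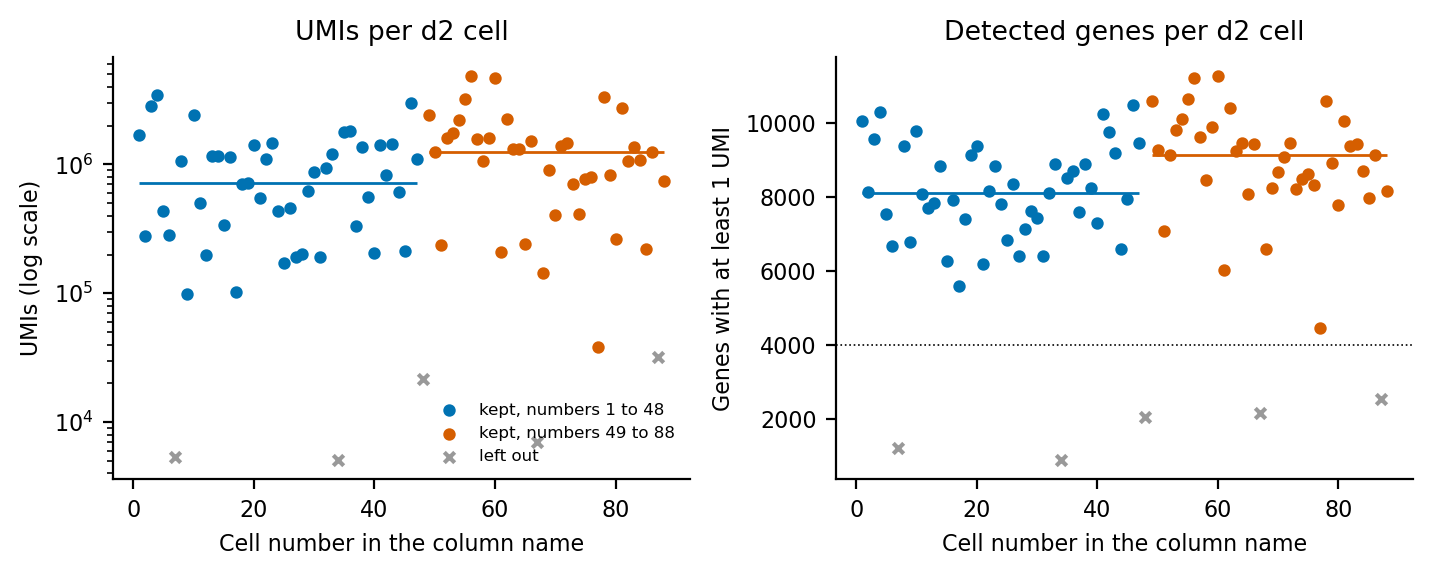
UMIs (log scale, left) and detected genes (right) of every deposited d2 cell against the running number of the cell, with lines at the medians of kept cells and a dotted line at 4000 genes. Cells left out (crosses) have at most 2552 genes, and the medians of both measures are higher in the cells numbered 49 to 88 (1254580 UMIs and 9145.5 genes) than in those numbered 1 to 48 (721613 UMIs and 8121 genes).

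UMIs were scaled to the total of each cell as CPM, not to gene length, and means and differences between groups were taken on log2(CPM + 1). In the kept d2 cells, 15925 genes had a UMI in at least 1 cell, 1760 had a UMI in every cell, and 5674 had a mean log2(CPM + 1) of at least 3, the floor used for counts within d2. The gene with the highest mean was *Lgals1*, which encodes a sugar-binding protein, at 16579 CPM, followed by *Ftl1* (ferritin light chain) at 14207 CPM and the nuclear RNA *Malat1* at 11491 CPM. None of these took over 2% of the UMIs.

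The d2 label came with 5 marker genes, and the first comparison asked whether they set these cells apart. *Spp1* encodes osteopontin, *Prg4* lubricin, *Esm1* a secreted proteoglycan, *Cst6* an inhibitor of cysteine proteases and *Gsta1* a glutathione transferase whose near copy *Gsta2* makes its counts uncertain. They lie at chr5:104864137-104870069 on the plus strand (*Spp1*), chr1:152296542-152313295 on the minus strand (*Prg4*), chr13:113999867-114008306 on the plus strand (*Esm1*), chr19:5344705-5349574 on the minus strand (*Cst6*) and chr9:78078463-78090491 on the plus strand (*Gsta1*) in NCBIM37. *Spp1* ran from 0 to 13371 CPM over d2 cells with a median of 178 CPM, and its mean of 1304 CPM lay below the mean of 2934 CPM at d1 and above that of 755 CPM at d3. *Cst6* ran from 0 to 349 CPM with a median of 1.83 CPM, and its means were 32.3 CPM at d1, 20.1 CPM at d2 and 2.63 CPM at d3. Both genes were thus intermediate at d2, with cells at every level. *Gsta1* had a median of 0 and a highest value of 127 CPM at d2, with means of 79.2 CPM at d1, 7.07 CPM at d2 and 1.18 CPM at d3. *Prg4* reached 26.1 CPM at most in d2 cells, and its mean was 49.8 CPM at d1, 0.953 CPM at d2 and 3.09 CPM at d3. *Esm1* changed least, with means of 51.7 CPM at d1, 48.4 CPM at d2 and 42.3 CPM at d3 and d2 cells between 0 and 850 CPM. All 5 means were higher at d1 than at d2, so the markers do not single out the d2 cells, which are called by their rule here.

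Across d2 cells the markers did not form a common set. A level of at least 100 CPM was found for *Spp1* in 49 cells, for *Esm1* in 9, for *Cst6* in 4, for *Gsta1* in 1 and for *Prg4* in none. For *Spp1* these were 20 of 45 cells in the first range and 29 of 38 in the second. None of the 5 reached that level in 28 cells (20 of the first range and 8 of the second), 48 cells had it for 1 marker, 6 cells for 2 and 1 cell for 3. The 8 highest cells of each gene, 9.64% of the cells, held 97.0% of the summed CPM of *Prg4*, 80.5% for *Gsta1*, 78.9% for *Esm1*, 66.5% for *Cst6* and 59.9% for *Spp1*. Of the 10 pairs of markers, *Cst6* with *Spp1* had the highest Spearman coefficient in cells 1 to 48 (0.516, n = 45) and 0.28 in cells 49 to 88 (n = 38). Coefficients over cells are descriptions throughout: all values of a cell share its library and depth, and they carry no p.

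**Figure D2:**
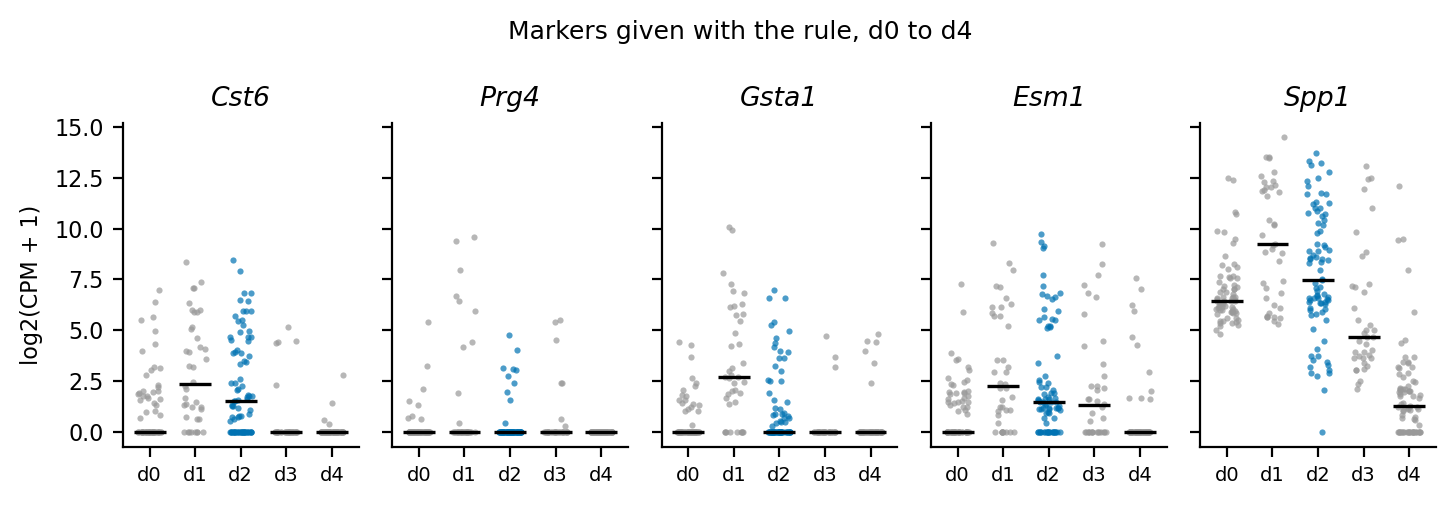
Log2(CPM + 1) of the 5 genes given as markers in each kept cell (points) of d0 to d4, with lines at the medians. *Spp1* is spread over the whole scale at d2, *Cst6*, *Gsta1* and *Esm1* are high in few d2 cells, and *Prg4* is at most 26.1 CPM in all d2 cells.

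The next question was which cell types the d2 cells held. Of 13 fibroblast markers, 11 passed the floor, all 13 had UMIs, and their summed level ran from 1312 to 15250 CPM with a median of 3325 CPM. *Vim*, the intermediate filament of mesenchymal cells, was the most abundant of them with a mean of 1339 CPM, and it was found in all 83 cells. Of the fibroblast master genes, *Twist2* had a mean of 853 CPM, *Prrx1* of 283 CPM and *Twist1* of 173 CPM, and each had UMIs in all 83 cells. *Osr1* had UMIs in 60 cells. Every kept d2 cell thus had fibroblast transcripts.

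XEN markers were low. Their 12 genes had a summed median of 61.6 CPM at d2 against 2086 CPM at d20, with *Col4a1*, a basement membrane collagen that fibroblasts also make, the most abundant at a mean of 41.2 CPM. The summed median was 159 CPM at d0 and 67.2 CPM at d1, so d2 lay below the MEFs. *Gata6*, a further member of the list, reached 224 CPM in its highest d2 cell. *Sox17*, a transcription factor of endoderm, had UMIs in 10 cells, 12.0% of d2 cells (95% Clopper-Pearson interval 5.93% to 21.0%), with a mean of 0.197 CPM. In MEFs at d0, which should lack it, the share was 1.39%, at a median depth of 344196 UMIs. Cells with at least 50000 UMIs were also thinned to that number, which 82 of the 83 d2 cells allowed, and cell 77 with 38116 UMIs dropped out. Among thinned cells the shares were 2.44% at d2 and 1.41% at d0, and these lay closer together than the shares at full depth. *Sall4* had UMIs in 7 d2 cells and *Gata4* in 1, and neither was left in any d2 cell after thinning. *Foxa2* and *Hnf4a* had UMIs in 0 of 83 cells. A count of 0 was taken to allow up to 3 cells, which is 3.61% and no Clopper-Pearson limit.

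Markers of other types were low in nearly all d2 cells. The median summed level was 18.0 CPM for 8 endothelial markers, led by *Egfl7* at a mean of 19.5 CPM, with *Pecam1* and *Emcn* at 0 UMIs. It was 1.10 CPM for 9 markers of macrophages and leukocytes, of which *Ptprc*, *Adgre1*, *C1qa* and *C1qb* had 0 UMIs and *Cd68* was the most abundant at 5.07 CPM. The sum was 8.56 CPM for 8 epithelial markers, led by *Krt19*, with *Cdh1* and *Krt5* at 0 UMIs. Sums of 45.1 CPM for 9 markers of cartilage, bone and tendon (led by *Runx2* at a mean of 45.6 CPM), 4.37 CPM for 6 of fat cells (led by *Lpl* at 6.11 CPM) and 40.4 CPM for 7 of neural and glial cells (led by *Nes* at 28.6 CPM) were also small beside the fibroblast sum. For 6 erythroid markers the median was 0, with 5 of them at 0 UMIs and *Alas2* in 2 cells.

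Single cells stood apart from this picture, and the 4 described next were chosen after their values were seen. Cell 61 (208106 UMIs and 6029 genes) held 95.0% of the summed CPM of 8 skeletal muscle markers over d2, 23478 CPM against 183 CPM in the next cell and a median of 7.12 CPM. In it *Acta1* (skeletal actin) stood at 8227 CPM, *Myl1* (a myosin light chain) at 7549 CPM, *Actc1* at 5137 CPM and the muscle transcription factors *Myog* and *Myod1* at 1355 and 197 CPM, whereas *Ckm* had no UMI. In no other d2 cell did *Acta1* exceed 48.4 CPM or *Myog* 1.39 CPM. Its fibroblast sum of 1312 CPM was the lowest of the 83 cells, and its *Cdkn1a* level of 12244 CPM the highest.

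Cell 4 (3492358 UMIs) had *Krt19* at 4693 CPM, *Krt18* at 164 CPM and 0 UMIs of *Epcam*, *Cdh1* and *Krt5*. It held 48.2% of the summed CPM of the epithelial markers. Cell 8 (1055206 UMIs) had the highest sum of macrophage and leukocyte markers, 264 CPM, from *Csf1r* at 218 CPM and *Cd14* at 46.4 CPM alone, the second highest sum of epithelial markers, 2405 CPM, and the highest levels of *Lpl* (224 CPM), *Fos* (948 CPM) and *Saa3* (3857 CPM). Cell 54 led the cytokine and chemokine genes with a sum of 14786 CPM, 20.7% of the total over d2, nearly all of it from *Ccl2* at 8299 CPM and *Ccl7* at 6404 CPM. Cells 4 and 8 are of the first number range, 61 and 54 of the second. Without cells 61, 4 and 8, an alternative chosen after seeing the data, 28 variable genes were called, 25 of them among the 28 described next.

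Variation within the day was measured gene by gene. Spread depends on the mean in count data, so the standard deviation of log2(CPM + 1) over cells was compared with the median of the 200 genes nearest in mean. A gene was called variable when this excess was at least 1 in each number range taken alone, so that an offset between ranges could not make it. Of 5674 genes, 28 were called (0.493%). A further 48 genes passed in cells 1 to 48 only and 17 in cells 49 to 88 only, and 224 had an excess of at least 0.5 in both.

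*Spp1* was the most variable gene, with a smaller excess of 1.79, followed by *Cryab* (1.71), *Lix1* (1.43), *Enpp2* (1.36), *Gsta4* (1.33), *Myl9* (1.29), *Acta2* (1.29), *Dcn* (1.26), *Cdkn1a* (1.26) and *Cenpe* (1.25). The others, in falling order, were *Fst*, *Penk*, *Cdkn1c*, *Tm4sf1*, *Slc14a1*, *Cyr61*, *Top2a*, *Ccnb1*, *Gap43*, *Nnat*, *Plk1*, *Bex1*, *Hmgb2*, *Igf2*, *Tk1*, *Cthrc1*, *Ch25h* and *Tnfsf9*. *Tnfsf9* passed at 1.0003, just over the threshold. None of the 28 followed depth past a Spearman coefficient of 0.5 in both ranges, and their coefficients with UMIs lay between -0.396 and 0.353. After thinning to 50000 UMIs, 36 genes were called, 22 of them from the 28.

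**Figure D3:**
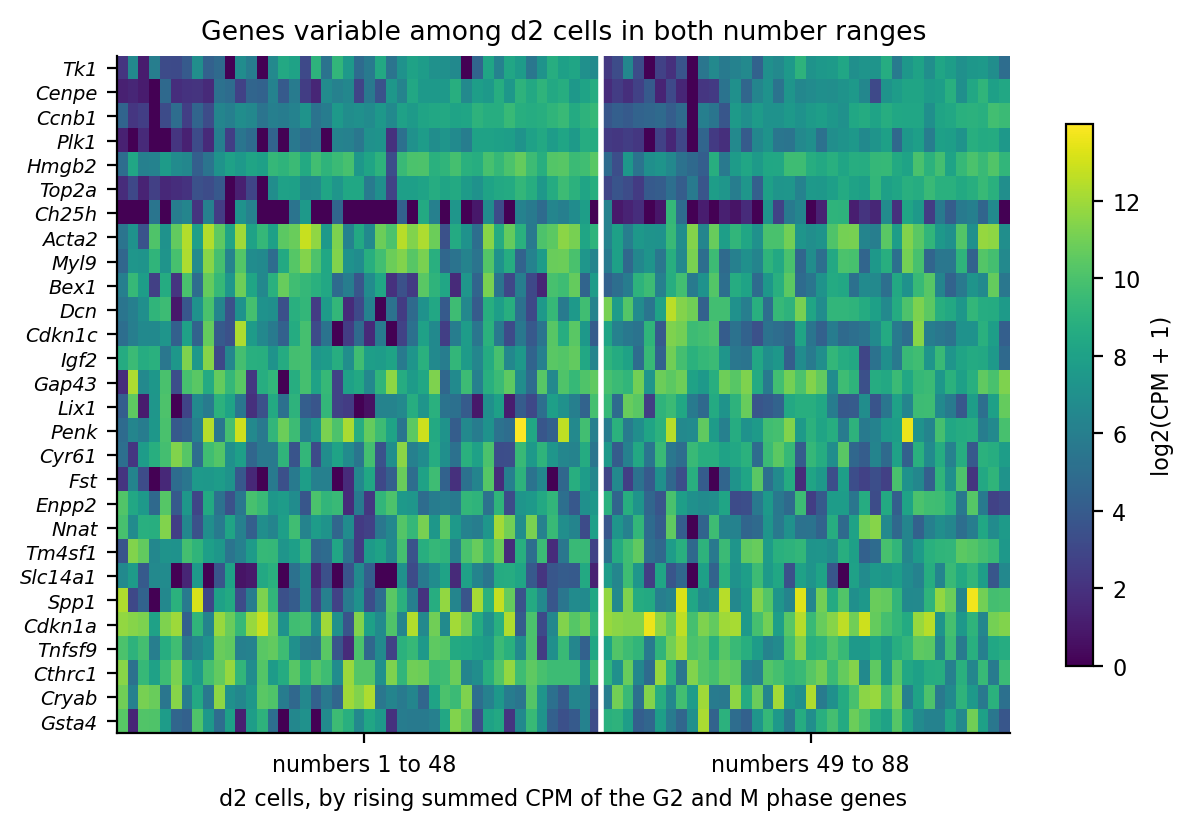
Log2(CPM + 1) of the 28 variable genes (vertical axis, ordered by likeness) in the 83 kept d2 cells (horizontal axis), split by number range and ordered within each range by the summed CPM of 18 G2 and M phase genes. *Tk1*, *Cenpe*, *Ccnb1*, *Plk1*, *Hmgb2* and *Top2a* rise along this order in both ranges, whereas *Penk*, *Spp1* and *Cryab* are high in cells spread over it. *Cenpe*, *Ccnb1*, *Plk1* and *Top2a* are among the 18 genes that set the order, so their rise is built in, and *Tk1* and *Hmgb2* are not.

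Most variable genes did not move together. Among 378 pairs, 14 had a coefficient of at least 0.5 in both ranges and none was at or below -0.5 in both. The median over all pairs was 0.02 in each range, and the 14 pairs join 10 of the 28 genes. Of the 14 pairs, 12 lay among *Plk1*, *Ccnb1*, *Cenpe*, *Top2a*, *Hmgb2* and *Tk1*. Of these genes, *Hmgb2* and *Tk1* are not on the lists of S phase or of G2 and M phase genes used here. *Plk1*, a mitotic kinase, and *Ccnb1*, cyclin B1, had 0.92 in cells 1 to 48 and 0.885 in cells 49 to 88. *Acta2* with *Myl9* (0.83 and 0.768) and *Cdkn1c* with *Igf2* (0.648 and 0.575) were the other pairs. *Cdkn1c*, an inhibitor of the cell cycle, and *Igf2*, a growth factor, are imprinted genes of the same chromosome, and 791533 bases lie between them on chr7 in NCBIM37. Ranked by the weaker coefficient of the ranges, the lowest pair was *Penk* with *Spp1* at -0.496 and -0.473. *Myl9* with *Slc14a1*, at -0.450 and -0.571, was lower in cells 49 to 88.

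Genes of the cell cycle rise and fall as cells pass through it, and the comparison asked how many d2 cells held them. *Top2a*, the topoisomerase that untangles chromosomes before mitosis, ran from 0 to 762 CPM with a median of 176 CPM and UMIs in 81 cells. *Ccnb1* ran from 0 to 864 CPM with a median of 146 CPM. Both genes were absent from 2 cells and high in others. Of 18 G2 and M phase genes, 17 passed the floor and 4 were variable (*Top2a*, *Ccnb1*, *Plk1*, *Cenpe*), against 0.493% of all genes, with a median excess of 0.81 over the 17. Of 17 S phase genes, 14 passed and none was variable, with a median excess of 0.11. The summed G2 and M level ran from 87.0 to 8493 CPM with a median of 2596 CPM, 2681 CPM in cells 1 to 48 and 2439 CPM in cells 49 to 88. It reached 1000 CPM in 62 of the 83 cells, 34 of 45 in the first range and 28 of 38 in the second. Its median was close to those of d0 (2709 CPM) and d1 (2476 CPM) and above those of d3 (1160 CPM) and d4 (236 CPM). The means of d2 (2876 CPM) and d3 (2716 CPM) lay close together, unlike the medians. The coefficient of the sum with UMIs was 0.08 in the first range and -0.12 in the second.

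The partners of *Top2a*, the 5 genes with the highest smaller coefficient, were *Cdk1* (0.827 and 0.829), *Ckap2l*, *Aurkb*, *Cenpe* and *Kif20b*. Since members that move together may share promoter letters, the 100 bases before the start of the variable G2 and M genes and of these partners were searched on both strands for CCAAT and for TTTGAA, motifs known from promoters of mitotic genes. The promoter table used here (RefSeq GRCm38.p6) held an entry for 7 of the 8 genes, and *Aurkb* was not searched. CCAAT was found in 6 of the 7 against 18.9% of all 32851 promoters cut to the same length, and TTTGAA in 3 of the 7 against 5.77%. The motifs share no letters in these stretches. *Kif20b* had neither. In *Cdk1*, CCAAT starts 80 and 48 bases before the start of the gene and TTTGAA 71 and 15 bases before it. In *Top2a*, CCAAT starts 98, 78 and 58 bases before the start and TTTGAA 23 bases before it. The 6 promoters with a match are shown from 5′ to 3′ with both motifs in capitals, as ATTGG and TTCAAA where they lie on the other strand. They are chr11:99024190-99024289 (minus, *Top2a*), chr10:69352913-69353012 (minus, *Cdk1*), chr2:129297213-129297312 (minus, *Ckap2l*), chr13:100786487-100786586 (minus, *Ccnb1*), chr7:122159335-122159434 (plus, *Plk1*) and chr3:135212463-135212562 (plus, *Cenpe*) in GRCm38.p6. A match is a description of the letters only.
Top2a: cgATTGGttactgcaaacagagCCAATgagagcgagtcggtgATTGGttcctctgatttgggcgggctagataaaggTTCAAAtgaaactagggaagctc
Cdk1: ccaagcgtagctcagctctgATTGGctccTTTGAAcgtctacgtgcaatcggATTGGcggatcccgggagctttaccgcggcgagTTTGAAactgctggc
Ckap2l: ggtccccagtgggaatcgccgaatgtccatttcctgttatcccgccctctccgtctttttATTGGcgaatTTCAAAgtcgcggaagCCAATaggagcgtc
Ccnb1: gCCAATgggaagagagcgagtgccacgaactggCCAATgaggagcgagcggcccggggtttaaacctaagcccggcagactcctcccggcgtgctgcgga
Plk1: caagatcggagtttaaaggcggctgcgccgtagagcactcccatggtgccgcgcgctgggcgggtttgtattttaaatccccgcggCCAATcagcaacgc
Cenpe: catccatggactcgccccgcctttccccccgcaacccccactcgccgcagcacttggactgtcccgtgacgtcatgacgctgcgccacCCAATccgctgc

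*Cdkn1a* encodes p21, an inhibitor of the cell cycle that p53 turns on. It ran from 7.84 to 12244 CPM over d2 cells with a median of 1582 CPM, and it exceeded 1000 CPM in 47 cells. In the 62 cells with a G2 and M sum of at least 1000 CPM its median was 1003 CPM, against 2705 CPM in the other 21. *Cdkn1a* and the mitotic genes thus leaned in opposite directions, though weakly, with coefficients of -0.2 in cells 1 to 48 and -0.39 in cells 49 to 88. Its partners included the p53 targets *Phlda3* (0.636 and 0.676) and *Ccng1* (0.632 and 0.691), and also *Dcxr*, *Ak1* and *Cd81*. Of 12 inhibitors of the cycle and p53 targets, 7 passed the floor and 2 were variable (*Cdkn1a* and *Cdkn1c*), against 0.493% of all genes. The median of their summed level was 3148 CPM at d0, 1122 CPM at d1, 2743 CPM at d2 and 3253 CPM at d3, so d2 lay above d1 and below the MEFs.

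Contractile genes mark fibroblasts that pull on their matrix, and TGF-β is their best known inducer. *Acta2*, smooth muscle actin, ran from 9.90 to 7148 CPM with a median of 542 CPM, and its median was 1063 CPM in cells 1 to 48 against 243 CPM in cells 49 to 88. The difference between its means of log2(CPM + 1) was -0.63, which did not pass the threshold. *Myl9*, a myosin regulatory light chain, ran from 20.9 to 4996 CPM with medians of 367 CPM and 123 CPM in the same order. Cells with high values of both genes were found in each range, and more of them in the first. The partners of *Acta2* were *Myl9*, *Tagln* (0.737 and 0.764), *Cnn1* and *Csrp1*, which bind or stiffen actin, and the collagen gene *Col1a1* (0.646 and 0.756). *Ctsl*, a lysosomal protease, was among the genes that ran against *Acta2* (-0.566 and -0.638). Of 14 TGF-β target genes, 10 passed the floor and only *Acta2* was variable, against 0.493% of all genes. The median of their sum was 6179 CPM at d0, 1130 CPM at d1, 1589 CPM at d2 and 1672 CPM at d3. Within d2 it was 2267 CPM in cells 1 to 48, above d1 and d3, and 1021 CPM in cells 49 to 88, below both. The order of d1, d2 and d3 thus held in neither range.

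Further variable genes encode secreted proteins or a heat shock protein. *Penk*, the precursor of enkephalin peptides, ran from 12.2 to 16352 CPM with a median of 206 CPM, and the 8 highest cells held 68.3% of its summed CPM. Its medians were 146 CPM in cells 1 to 48 and 255 CPM in cells 49 to 88. *Cryab*, a small heat shock protein, ran from 14.3 to 5059 CPM with a median of 167 CPM, and 24 cells exceeded 1000 CPM, with medians of 83.1 CPM and 390 CPM in the same order. Each gene was therefore high in a minority of cells while all 83 had UMIs of it. *Cryab* was the first partner of the marker *Esm1* (0.497 and 0.57). *Fst*, follistatin, which binds activin, ran from 0 to 1749 CPM with a median of 53.4 CPM. *Enpp2*, the enzyme autotaxin that makes lysophosphatidic acid, ran from 2.31 to 1268 CPM with a median of 157 CPM and leaned against *Fst* (-0.438 and -0.484). For *Spp1* the first partners were *Psmb6* (0.476 and 0.424) and the metallothionein *Mt1* (0.454 and 0.41). Coefficients for *Prg4*, with UMIs in 10 cells, were too sparse to describe.

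The number ranges were compared next, because a difference between them is variation within the day that no label explains. Genes were called when the means of log2(CPM + 1) differed by over 1. This is a factor of 2 on that scale only and need not be one in mean CPM. Of 5674 genes, 228 were higher in cells 49 to 88 (4.02%) and 80 were lower (1.41%), and the median over all genes was 0.09. In 28 genes the difference exceeded 2. By log2 of the ratio of mean CPM + 1, 161 genes passed the same threshold, 91 higher and 70 lower. Of the 308 genes called by means of log2(CPM + 1), 119 were among them. Of the 28 variable genes, 10 also differed between ranges, 9 higher in the later cells (*Spp1*, *Dcn*, *Slc14a1*, *Lix1*, *Cdkn1a*, *Gsta4*, *Gap43*, *Tnfsf9*, *Cryab*) and *Myl9* lower. The difference of *Myl9*, -1.06, was -0.97 with TMM and -0.90 with DESeq2 and then did not pass. The ranges also differ in depth and spike-in share; the values at equal depth are given with the low and high ends, and the part of the spike-in share was not tested.

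*Fos*, an immediate early gene that answers growth factors and handling within minutes, fell most, by 4.24. It ran from 2.31 to 948 CPM in cells 1 to 48 with a median of 90.5 CPM, and had a median of 1.73 CPM in cells 49 to 88, where some cells had none. *Egr1*, of the same class, fell by 2.59, from a median of 23.2 CPM to 0.718 CPM. All of the 8 highest *Fos* cells and all of the 8 highest *Egr1* cells were numbered 1 to 48. *Notum* and *Wif1*, secreted proteins that dampen Wnt signals, fell by 3.02 and 2.64, and *Notum* went from a median of 115 CPM to 6.19 CPM. The matrix protein gene *Tgfbi* fell by 2.37, and *Akr1e1*, *Usp39* and *Ccdc80* by 2.35, 2.16 and 1.93. Of 14 immediate early genes, 8 passed the floor and 3 were lower in the later range, against 1.41% of all genes.

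Among genes that were higher in the later cells, *Ccl7*, a chemokine that draws monocytes, led with a difference of 3.01, from a median of 14.7 CPM to 192 CPM. *H2-K1*, a class I histocompatibility gene (2.83), *Mcpt8*, a protease of basophils (2.72), the matrix protease *Mmp3* (2.57), the matrix proteoglycans *Lum* (2.44) and *Dcn* (2.36), *Spp1* (2.39) and the p53 target *Pmaip1* (2.19) followed. *Lum* went from a median of 34.6 CPM to 318 CPM and *Dcn* from 123 CPM to 416 CPM. *Dcn* and *Lum* are neighbours on chr10 with 47357 bases between them in NCBIM37, and their coefficient over cells was 0.487 and 0.461. *Ccl2* and *Ccl7*, 8258 bases apart on chr11, had 0.697 and 0.755.

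**Figure D4:**
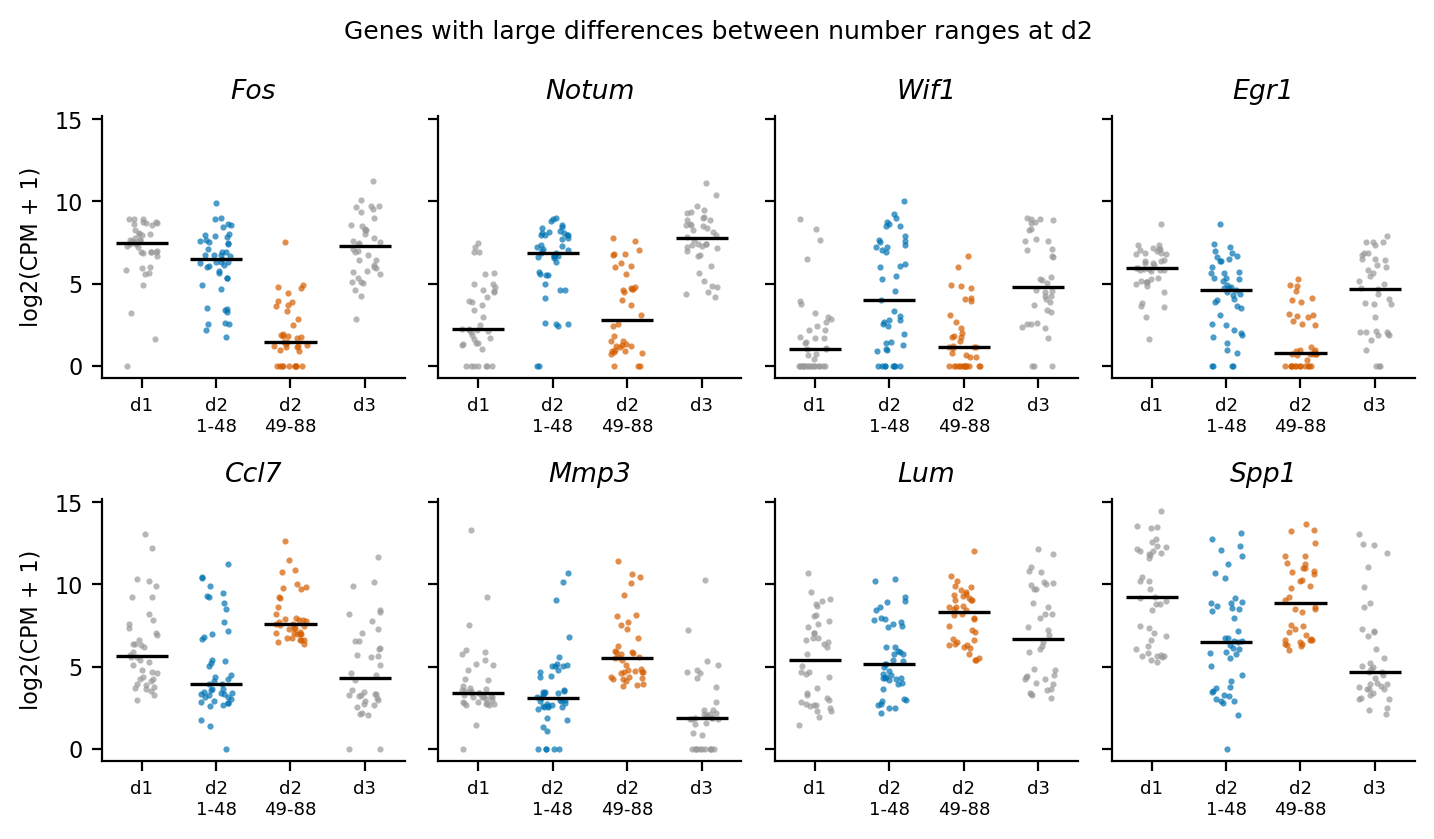
Log2(CPM + 1) of 8 genes with large differences between number ranges in each kept cell (points) of d1, of both ranges of d2 and of d3, with lines at the medians. *Fos* and *Egr1* are lower in d2 cells 49 to 88 than in the other 3 sets, and no cell of that set lies below 83.4 CPM for *Ccl7* or below 62.9 CPM for *Spp1*.

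The low end of the distributions carried much of the rise, a pattern looked for after the values were seen. In cells 49 to 88 no cell had less than 83.4 CPM of *Ccl7*, 62.9 CPM of *Spp1*, 41.0 CPM of *Lum*, 19.3 CPM of *Dcn* or 13.0 CPM of *Mmp3*, whereas in cells 1 to 48 the lowest value was 0 for 4 of these and 3.58 CPM for *Lum*. The 10th percentile of *Ccl7* rose from 5.58 to 97.2 CPM and its 90th from 683 to 1261 CPM, a difference of 3.90 in log2 at the low end and of 0.88 at the high end. *Spp1* behaved alike, with 3.43 at the 10th percentile and 0.49 at the 90th. *Mmp3* rose at both ends, by 3.68 and 4.21. Over the 228 genes that were higher in the later cells the median difference was 1.93 at the 10th percentile and 0.68 at the 90th, against 0.29 and 0.00 over all 5674 genes. Over the 80 lower genes it was -0.64 and -0.95. Of the 228 genes, 89 had a UMI in every cell of the later range and 32 in every cell of the first, against 2507 and 2117 of all 5674 genes. After thinning to 50000 UMIs, without cell 77 of the later range, 502 genes were called, 161 of them among the 308. At that equal depth the difference was 4.37 for *Ccl7*, 3.56 for *Mmp3*, 3.03 for *Lum*, 2.87 for *Spp1* and 2.82 for *Dcn*, larger than from all UMIs, and 2.55 for *H2-K1* and 2.53 for *Mcpt8*, smaller than from all UMIs. In a thinned cell 1 UMI stands for more CPM, so the step from 0 to 1 UMI is larger in log2(CPM + 1). The size of a thinned difference therefore cannot be set against that from all UMIs, and a larger one does not show a larger contrast. For *Fos* the 10th percentile fell by 2.91 and the 90th by 3.97.

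Other days with both ranges were set beside d2 to see whether the calls belong to the numbers as such. Of the 308 genes called at d2, 189 passed the floor at d0, where 50 differed by over 1 in the same direction and 6 in the opposite one, against 9.25% of all genes tested at d0 in either direction. At d4, 223 passed, with 37 in the same direction and 46 in the opposite one, against 609 higher and 436 lower of all 5223 genes tested. *Fos* differed by -2.19 at d0 and by 1.44 at d4, and *Dcn* by 2.55 at d0 and by -5.37 at d4. At d12c, 29 of 150 were in the same direction and 66 in the opposite one, against 45.4% of all genes. At d6p the counts were 7 and 6 of 191 (4.25% of all genes), at d8 12 and 24 of 200 (16.8%), at d12 5 and 11 of 207 (4.58%) and at d20 12 and 25 of 119 (29.1%). At d0 *Lum* (3.06), *Ccl7* (2.04), *H2-K1* (1.93), *Mmp3* (1.22), *Mcpt8* (1.07) and *Egr1* (-1.22) also passed in the direction of d2, whereas *Spp1* (-0.27), *Notum* (0.11), *Wif1* (0.59) and *Tgfbi* (0.00) did not. Number ranges and batches cannot be told apart, since no cell is named by its batch.

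Depth within each range was checked gene by gene. The Spearman coefficient of CPM with the UMIs of the cell passed 0.5 in size with the same sign in both ranges for 6 of 5674 genes. *Spg21* rose with depth (0.505 and 0.531). *Dpysl2* (-0.605 and -0.65), *Washc4* (-0.592 and -0.565), *Ptp4a2* (-0.532 and -0.625), *Actb* (-0.521 and -0.602) and *Ywhaz* (-0.514 and -0.578) fell. The median over all genes was 0.06 in cells 1 to 48 and 0.09 in cells 49 to 88. CPM contain the UMIs of the cell as their divisor, so the points share that value. Few genes therefore followed depth by rank. With the TMM factors of edgeR 4 genes rose and 1 fell, and with the size factors of DESeq2 2 rose and 1 fell, and 2 of the 6 were among them in each case. Which genes follow depth, and whether more rise or fall, thus rests on the scaling.

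A principal component asked for the main axis of variation after each gene was centred within its number range. Component 1 held 7.31% of the variance over 5674 genes, component 2 4.60% and component 3 3.22%. The positive end of component 1 was made of *Plk1*, *Ska1*, *Kif20b*, *Sgo2a*, *Melk*, *Ckap2l*, *Ndc1* and *Cenpe*. *Igfbp5*, *Btg2*, *Abcg2*, *Atxn1*, *Ptn*, *Lmo7*, *Mcmbp* and *Fbln2* made up the negative end. Of the genes at both ends, 1 was kept when genes were scaled to unit variance, 4 after thinning and 9 with at least 6000 genes per cell, while the size of the coefficient of the scores with those given here was 0.958, 0.63 and 0.975 in the same order. Its scores followed the number of detected genes (0.787 and 0.536), the UMIs (0.488 and 0.438) and the G2 and M sum (0.51 and 0.375). The lowest scores were those of cells 77 (-154.6), 44 (-111.2), 61 (-106.9) and 21 (-86.9). These cells had 4462, 6606, 6029 and 6208 detected genes. The highest score was only 37.8, in cell 42. Component 1 thus rests much on a few cells with few detected genes, cell 61 with its muscle genes among them. In cells thinned to 50000 UMIs component 1 held 4.34%, and the size of its coefficient with UMIs was 0.06. Component 2 followed the S phase sum (0.504 and 0.516) and the G2 and M sum (0.428 and 0.559), with -0.256 and -0.176 for UMIs.

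Cells of d2 were next compared with those of d1. Day and batch cannot be told apart in this comparison or in that with d3, since no cell is named by its batch. A gene was called when means of log2(CPM + 1) differed by over 1, among genes whose mean reached 3 in d1 or in d2. Of 5916 genes, 397 were higher at d2 (6.71%) and 137 were lower (2.32%), with a median of 0.09. Since the ranges of d2 differ, each call was also read in each range: 235 of the 397 and 71 of the 137 passed in both. The same d2 cells enter the comparison with d3, and the genes named for either day as largest were chosen after their values were seen.

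*Bex1*, an adaptor protein best known from nerve cells, rose most, by 3.25 in log2. It ran from 1.74 to 2300 CPM at d2, with a mean of 402 CPM against 43.6 CPM at d1, and rose in both ranges (3.11 and 3.42). *Pla2g7*, a secreted phospholipase, rose by 3.05 (3.27 and 2.79), *Enpp2* by 2.91 (3.05 and 2.74) and *Mllt3*, a reader of acetylated histones, by 2.85 (3.10 and 2.55). These 4 rises were of like size in both ranges. *Lix1* rose by 3.08, with 2.34 in cells 1 to 48 and 3.96 in cells 49 to 88. *Pmaip1* rose by 2.87, with 1.87 and 4.06.

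Among the falls, *U90926*, a transcript of unknown role, fell by 2.97 (3.32 and 2.55) and *Tinagl1*, a matrix protein, by 2.84 (2.66 and 3.05). The mean of *Tinagl1* went from 134 CPM at d1 to 20.3 CPM at d2. *Fos* fell by 2.81, but by 0.87 in cells 1 to 48 and by 5.11 in cells 49 to 88, and *Egr1* fell by 2.78, by 1.60 and 4.19. The fall of *Fos* past the threshold therefore rests on the later number range. *Gsta1* fell by 2.27 (2.45 and 2.04), and *Spp1* by 1.56, of which 2.65 in cells 1 to 48 and 0.26 in cells 49 to 88. Of 6 cytokine and chemokine genes tested, 5 were lower, against 2.32% of all genes, with a median difference of -1.76. *Il11* fell by 2.41 (1.92 and 2.99). *Il1rl1* fell by 2.32, of which 3.54 in cells 1 to 48 and 0.87 in cells 49 to 88, and *Ccl2* fell by 1.05, of which 1.82 and 0.13, so these calls rest on the first range. *Ccl7* differed by -1.14 in cells 1 to 48 and by 1.88 in cells 49 to 88.

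Between d2 and d3 more genes differed. Of 6063 genes, 482 were higher at d2 than at d3 (7.95%) and 263 were lower (4.34%), with a median of 0.12. Both ranges passed for 287 of the 482 and for 147 of the 263. *Slc14a1*, a urea transporter, was higher at d2 by 3.29, with 2.36 in cells 1 to 48 and more in cells 49 to 88, *Tm4sf1*, a membrane protein, by 3.13 (2.80 and 3.52) and *Plaur*, the receptor of urokinase, by 2.96 (2.52 and 3.48). *Itga6* (2.82), *Bok* (2.77) and the growth factor *Areg* (2.67) followed. *Tm4sf1* had means of 520 CPM at d1, 478 CPM at d2 and 116 CPM at d3, so its change fell between d2 and d3. *Acta2* was higher by 2.52 than at d3 (2.81 and 2.18) and by 0.76 than at d1.

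Genes lower at d2 than at d3 included *Ifitm1* (-3.06), *Wdr86* (-3.00), *Fos* (-2.99), *Frem1* (-2.81) and *Notum* (-2.64). *Ifitm1* had means of 6.03 CPM at d1, 52.9 CPM at d2 and 317 CPM at d3, and the difference was present in both ranges (-2.63 and -3.57). *Notum* differed by -1.26 in cells 1 to 48 and by -4.27 in cells 49 to 88, and *Fos* by -1.05 and -5.29. G2 and M phase genes were higher at d2 in 7 of 17 and lower in none, with a median of 0.99 against 0.12 over all genes, of which 7.95% were higher and 4.34% lower. All 7 passed in cells 49 to 88 alone, whereas *Aurka* (0.98), *Aurkb* (0.92) and *Hmmr* (0.98) did not pass in cells 1 to 48 alone. NRF2 and glutathione genes were higher in 6 of 10 and lower in none, with a median of 1.16, beside the same shares of all genes. Of the 6, *Gsta4* (0.98) did not pass in cells 1 to 48 alone and *Txnrd1* (0.87) did not pass in cells 49 to 88 alone.

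Few genes peaked at d2. Among 7182 genes whose mean reached 3 somewhere in the 12 groups, 5 were higher at d2 than in each other group by at least 1 (0.0696%), 743 by any margin, and none was lower than in each by at least 1. They were *Itgbl1* (1.43), *Neto2* (1.24), *Arap1* (1.16), *Zfp113* (1.05) and *Lix1* (1.02). In cells 1 to 48 alone the margins of these 5 were 1.15, 0.93, 0.87, 0.51 and 0.28, and in cells 49 to 88 alone 1.75, 1.62, 1.49, 1.70 and 1.90. The margins were thus larger in the later range. With cells 49 to 88 alone all 5 genes were called, whereas with cells 1 to 48 alone none of them was, *Itgbl1* because its mean fell below the floor, and the only gene called there was *Tcf7* (1.07). After thinning the margins were 1.19, 0.93, 0.33, 0.77 and 0.88, and none of the 5 was called, *Itgbl1* again because of the floor. *Itgbl1*, a secreted protein with integrin-like repeats, had d2 cells between 0 and 318 CPM, a mean of 28.4 CPM and a mean of 11.1 CPM at d3, the next group by mean of log2(CPM + 1). *Pop1*, *Brip1os*, *Lin7a*, *Ggh*, *Syndig1*, *Fastkd3* and *Rin1* had the next margins, between 0.98 and 0.78. *Bmp2*, a ligand of the BMP pathway, had a mean of 118 CPM at d2 against 62.0 CPM at d1 and 59.7 CPM at d3, with d2 cells between 0 and 411 CPM. Its margin over the next group was 0.77, with 0.78 and 0.75 in the ranges, and 0.33 after thinning. The lowest margin was that of *Meg3*, an imprinted noncoding RNA, at -0.37, and 15 other genes were lowest at d2 by less, led by *Tgoln1*, *Pdcd4* and *Arrdc4*.

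Lists of genes that answer the agents were read last, beside the medians over all genes (0.09 for d2 minus d1 and 0.12 for d2 minus d3). Of 14 Wnt target genes, 8 were tested against d1, 4 were higher at d2 and none was lower, with a median difference of 0.83. Over all genes 6.71% were higher. The higher ones were *Tnfrsf19* (2.33), *Notum* (2.03), *Nkd1* (1.91) and *Tcf7* (1.00). In cells 49 to 88 alone *Notum* (0.40) and *Tcf7* (0.42) did not pass, whereas both passed in cells 1 to 48. Against d3, 5 of 11 Wnt target genes were lower at d2 and none was higher, with a median of -0.68. Over all genes 4.34% were lower than at d3. Of the 5, *Nkd2* (-0.97), *Sp5* (-0.76) and *Tnfrsf19* (-0.92) did not pass in cells 1 to 48 alone. The median of the summed level was 290 CPM at d0, 1029 CPM at d1, 1549 CPM at d2 and 1935 CPM at d3, so it rose from d0 to d3. *Ccnd1*, cyclin D1, was the most abundant of them with a mean of 687 CPM and did not move from d1 (0.01). Within d2 the sum was 1744 CPM in cells 1 to 48 and 1363 CPM in cells 49 to 88.

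Of 10 retinoic acid target genes, 6 were tested against d1, and *Stra6* (1.59) and *Rarb* (1.58), a membrane transporter of retinol and a retinoic acid receptor, were higher, against 6.71% of all genes. Against d3, 2 of 6 retinoic acid target genes were lower at d2 and none was higher, with a median of -0.73, against 4.34% of all genes lower. The summed medians of this list were 128 CPM at d0, 594 CPM at d1, 784 CPM at d2 and 1024 CPM at d3. Of 6 cyclic AMP response genes tested against d1, 1 was higher (*Pde4d*, 1.02) and 2 were lower (*Fosb*, -2.32, and *Areg*, -1.29), against 6.71% and 2.32% of all genes, with a median of -0.64. *Pde4d* (0.74) and *Areg* (-0.69) did not pass in cells 49 to 88 alone. Against d3, 2 of 7 cyclic AMP response genes were higher and 2 lower, against 7.95% and 4.34% of all genes. NRF2 and glutathione genes, which protect against oxidants, were lower than at d1 in 4 of 12 and higher in none, with a median of -0.83, against 2.32% of all genes lower. The lower ones were *Gsta1* (-2.27), *Gclm* (-1.48), *Gsta2* (-1.28) and *Gsta4* (-1.21). The *Gsta* genes are related neighbours on chr9, and the counts of *Gsta1* are uncertain beside its near copy *Gsta2*. The 4 are therefore not 4 independent members. Of them, *Gsta2* (-0.82) and *Gsta4* (-0.57) did not pass in cells 49 to 88 alone. The summed medians were 620 CPM at d0, 1542 CPM at d1, 881 CPM at d2 and 507 CPM at d3. *Gsta4* was the most abundant of them at 397 CPM. Of 18 matrix and protease genes, 10 passed the floor at d2, 5 were higher in the later number range and none was lower, against 4.02% and 1.41% of all genes. Their sum ran from 507 to 14835 CPM over d2 cells with a median of 2312 CPM, and *Spp1* was the most abundant.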

How the data were processed

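Single cells were picked by hand, and the authors deposited UMI counts per gene and cell, made from 150-base read pairs against the mm9 transcriptome; aligner and cell filter are not given in the sources used here. Of 23293 deposited table entries, 92 ERCC spike-ins and 4 repeated date-named genes were left out, and 23197 genes were used. A cell was kept from 4000 detected genes upward, and no doublet caller was run. Counts were scaled to CPM, and means were taken of log2(CPM + 1) with a floor of 3. Spread, number ranges, depth, d1, d3 and all 12 groups were compared by fixed thresholds without tests, since all cells count as 1 sample. Members and lists were chosen with earlier results of these data known. Named genes were the 5 markers and 5 partners of each, the 25 most variable, the 8 largest range differences in each direction, the 12 largest margins above and 8 below other groups, the 10 most abundant, 8 at each end of component 1, 4 per list and 9 master genes. Others were chosen after their values were seen. Shares have 95% Clopper-Pearson intervals, except that a count of 0 was taken to allow up to 3. Alternatives were other floors, pseudocounts, cell filters, thinning to 50000 UMIs (seed 1), TMM (edgeR 4.0.16) and size factors (DESeq2 1.42.0) in R 4.3.3. Python 3.11.15, numpy 2.4.6, pandas 2.3.3, scipy 1.17.1 and matplotlib 3.10.9 were used. Gene positions are NCBIM37, promoters GRCm38.p6.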

Additional observations from a re-analysis of the deposited data

How the results depend on the processing

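Of 68 alternatives to the main results, 37 stayed within the limit and 31 moved. The limit was 1.5 times for a count and the 95% counting interval of the UMIs for the marker level, which is narrow; for component 1 no limit was applied, and its 3 alternatives count as moved whatever their size. Those without cells 61, 4 and 8 were chosen after seeing the data and stayed within it. Cells carry no batch name, so no paired analysis could be made. The 28 variable genes became 10 with no filter on cells, 17 with a pseudocount of 10 and 224 at an excess of 0.5. The 308 genes that differ between ranges became 599 with a floor of 1, 95 with a floor of 5, 502 after thinning, 67 with a pseudocount of 10 and 161 by the ratio of means. The 6 genes that follow depth became 3 with at least 6000 genes per cell, 3 after thinning and 3 with DESeq2; 1 rose and 5 fell, against 4 and 1 with TMM and 2 and 1 with DESeq2. The 5 genes highest at d2 became 3 with at least 6000 genes, 2 with a floor of 5, 9 after thinning, 8 with TMM, 0 with a pseudocount of 10, 1 with cells 1 to 48 only, which is none of the 5, and 54 with cells 49 to 88 only. After thinning, which 82 of 83 cells allowed, none of the 5 was among the 9. The 534 genes of d2 minus d1 became 803 with a floor of 1, 198 with a floor of 5, 119 with a pseudocount of 10 and 913 with cells 49 to 88 only. The 745 of d2 minus d3 became 338 with a floor of 5, 189 with a pseudocount of 10 and 1230 with cells 49 to 88 only. The summed mean of the 5 markers, 1380 CPM, was 1772 CPM from pooled UMIs, 365 CPM as a median and 1388 CPM with no filter. Component 1, 7.31%, held 7.19% with genes scaled, 4.34% after thinning and 6.24% with at least 6000 genes.

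Of the genes that differ between ranges 74.0% were higher later, against 84.7% with no filter, 84.0% with TMM, 88.8% with DESeq2, 62.2% after thinning and 56.5% by the ratio of means; the median over all genes, 0.09, was 0.24 with DESeq2 and 0.20 with no filter. For d2 minus d1, 74.3% were higher, against 50.1% with no filter and 64.0% after thinning, and the median of 0.09 was 0.20 with DESeq2 and -0.11 with no filter. For d2 minus d3, 64.7% were higher, against 77.0% with DESeq2, where the median of 0.12 was 0.25. The cause was not tested. Depth limits genes under the floor and shares of cells with few UMIs.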

Other observations

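Of 14 hypoxia and glycolysis genes, 8 passed the floor at d2, none was variable, 1 of 9 was higher and 1 lower than at d1, and 2 of 9 were lower than at d3. Of 13 genes of the ER stress and amino acid response, 7 passed, none of 7 differed from d1, and 3 of 9 were higher and 1 lower than at d3. Of 10 interferon response genes only *B2m*, a subunit of class I histocompatibility molecules, passed, with a mean of 677 CPM. Of 12 genes of the BMP and activin pathways, 8 passed, 1 was variable (*Fst*), 2 of 8 were higher than at d1, and 3 of 8 higher than at d3. *Id3*, a target of BMP signals, was the most abundant of them at 1531 CPM. Over all genes 0.493% were variable, 6.71% were higher and 2.32% lower than at d1, and 7.95% higher and 4.34% lower than at d3.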
